A study of Mus musculus with 14 samples.

Results

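The genes described here are the 8 MHC class II genes Ciita, Cd74, H2-Aa, H2-Ab1, H2-Eb1, H2-DMa, H2-DMb1 and H2-Oa, taken from a table of 52550 genes by matching each Ensembl gene identifier to its symbol in the GRCm38 annotation. All 8 were found, once each. They were followed across 14 autochthonous mouse lung adenocarcinomas, 6 KPY-Ctrl and 8 KPY-Setd2KO tumors, each profiled by RNA sequencing of cells sorted from 1 dissected tumor. The question put to the data was how much of the class II RNA in each tumor moved with macrophage genes and how much with genes of alveolar type 2 (AT2) cells, since both cell types make it.

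Mice of both groups carried Trp53 flox/flox and Rosa26 LSL-YFP/LSL-YFP alleles on a mixed B6J/129S4vJae background, and males and females were used. Tumors were started through the airway with a lentivirus that expresses Cre, Cas9 and a guide RNA, against beta-galactosidase in KPY-Ctrl and against Setd2 in KPY-Setd2KO. All tumors therefore share loss of Trp53 and a YFP reporter in the infected cells, and live YFP-positive cells were sorted before RNA was made. The guide acts in whichever cells the virus enters, and YFP marks infection rather than a cell type. A gate against CD31, CD45 and Ter-119 was described for flow cytometry of KPY tumor cells but not for the sort that preceded RNA, and Ptprc (CD45) RNA ran from 5.32 to 698 CPM (counts scaled to library size) in the sorted cells. The age of the mice at each tumor's collection was not given in the sources used here. For this RNA the paper gives fewer mice than tumors in both groups, and which tumors shared a mouse was not given. The tests therefore treat tumors as independent, and the p-values measure the spread between tumors and not between mice. The labels describe RNA made from cell lines with a column kit, whereas the methods describe sorted tumor cells, and this difference was not resolved.

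MHC class II molecules present peptides from endocytosed protein to CD4+ T cells. Their alpha and beta chains pair in the endoplasmic reticulum with the invariant chain (Cd74), which blocks the groove until proteases of the endosome cut it away. H2-DM then swaps the remaining invariant chain peptide for antigen, and H2-O holds H2-DM back. Transcription of the whole group depends on the coactivator Ciita, which is recruited to promoters that carry the X and Y boxes, bound by the RFX and NF-Y complexes. In the lung, class II is made by dendritic cells, B cells and macrophages, and also constitutively by AT2 cells, the surfactant-making cells from which lung adenocarcinomas can arise.

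The promoters of 4 of the genes are shown because X and Y boxes tie class II genes to a common coactivator. Of these 4, the pair of boxes was found in H2-Eb1 and H2-DMb1 and not in H2-Aa or H2-Oa. H2-DMa, which lacked the Y box form marked here in its windows, is not shown. The RefSeq promoter table (GRCm38.p6) held 5 of the 8 genes, namely H2-Aa, H2-Eb1, H2-DMa, H2-DMb1 and H2-Oa. Each run below is the 150 bases before the RefSeq start of the gene, 5′ to 3′ on the gene's strand, and capitals mark a Y box in its 7-letter form TGATTGG and, where one was found in pair with it, an X box core AGNNACNGA. H2-Aa lies on the minus strand at chr17:34287824-34287973, and the other runs lie on the plus strand at chr17:34305717-34305866 (H2-Eb1), chr17:34153041-34153190 (H2-DMb1) and chr17:34092229-34092378 (H2-Oa).
H2-Aa: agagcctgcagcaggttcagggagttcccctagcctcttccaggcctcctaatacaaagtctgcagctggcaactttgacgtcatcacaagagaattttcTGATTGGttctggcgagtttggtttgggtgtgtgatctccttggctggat
H2-Eb1: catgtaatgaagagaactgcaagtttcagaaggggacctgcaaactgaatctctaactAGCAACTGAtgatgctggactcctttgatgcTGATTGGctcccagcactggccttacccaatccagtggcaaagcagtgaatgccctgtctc
H2-DMb1: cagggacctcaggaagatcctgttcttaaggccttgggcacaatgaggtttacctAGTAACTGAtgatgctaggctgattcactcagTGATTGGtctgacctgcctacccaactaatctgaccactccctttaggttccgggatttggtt
H2-Oa: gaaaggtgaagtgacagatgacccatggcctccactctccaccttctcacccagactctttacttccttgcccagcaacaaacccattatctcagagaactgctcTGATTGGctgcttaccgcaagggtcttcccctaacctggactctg

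The 7-letter Y box stood on the gene strand in all 4 of these promoters, beginning 50, 61, 63 and 45 bases before the start of H2-Aa, H2-Eb1, H2-DMb1 and H2-Oa, and it was not in either of the 2 windows listed for H2-DMa. Of 32817 promoter windows of 300 bases in the table, 7.8% held TGATTGG on either strand. The X box core was found in 17.7% of windows, and an X box core with ATTGG 10 to 30 bases away on the same strand was found in 75 windows, 0.229% of them. H2-Eb1 and H2-DMb1 were among these 75, with 24 and 25 bases between the boxes, as was the neighboring chain gene H2-Eb2. The motif forms were chosen with the sequences in view, and the letters are a description of the windows and not a measure of binding. H2-DMb1 and H2-DMb2, which lie side by side, shared 31.4% of the 31-base words of H2-DMb1 transcripts, so reads could be divided between the pair and the values of both are uncertain to that extent. No other member shared more than 1.41% of its words with another gene.

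The 6 KPY-Ctrl libraries held 27866266 to 51828846 estimated counts, with a median of 43550358, and the 8 KPY-Setd2KO libraries held 20072236 to 40604404, with a median of 33616025. After a filter on low counts 16836 genes were tested, and all 8 class II genes passed it. The targeted gene Setd2 was at 41.9 to 63.6 CPM in KPY-Ctrl tumors against 18.0 to 47.4 CPM in KPY-Setd2KO, so the groups overlapped, and a two-sided exact permutation test on mean log2 CPM (-0.81, KPY-Setd2KO minus KPY-Ctrl) gave p = 0.00466. Across all genes Setd2 was not called by edgeR with genotype alone (adjusted p = 0.175) and was called lower beside the macrophage and AT2 scores described next (adjusted p = 0.0215 by edgeR). The tumors differed widely in macrophage RNA within each genotype. Csf1r, the receptor for the macrophage growth factor, ran from 5.49 to 405 CPM, and the macrophage score, defined as the mean log2 CPM of 12 macrophage genes, ran from 2.79 to 8.39 with no tumor between 4.84 and 7.11. The 7 tumors above that gap were KPY-Ctrl 1, 2 and 6 and KPY-Setd2KO 1, 2, 3 and 4. The AT2 score, the same mean over 12 AT2 genes, ran from 7.90 to 10.73, and surfactant protein C (Sftpc) was at 3039 CPM or more in every tumor.

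Several defining markers of other cells that make class II were absent or near 0, and others were detected. Among 10 dendritic cell markers, Flt3, Xcr1, Clec9a and Cd209a did not pass the filter and reached at most 0.788 CPM in any tumor. Among B cell markers, Ms4a1, Cd79a, Pax5, Blk and Cr2 did not pass, and the highest value of Ms4a1 was 0.501 CPM, although Pax5 reached 5.14 CPM in KPY-Setd2KO 7. The dendritic and migration gene Fscn1, which tumor cells also can express, was at 88.2 and 96.4 CPM in KPY-Setd2KO 5 and 6 and at 0.323 to 16.5 CPM in the other tumors. The mean log2 CPM of the 6 dendritic markers that passed spanned -1.31 to 0.93 in KPY-Ctrl tumors and -0.44 to 1.38 in KPY-Setd2KO tumors, and that of the 2 B cell markers that passed from 1.08 to 2.09 and from 0.87 to 3.87. Batf3, another dendritic marker, was at 3.87 to 6.78 CPM in the 7 tumors above the macrophage gap and at 0.268 to 3.44 CPM in the others. In the edgeR fit described below, 2 of the 6 dendritic markers were called higher with the macrophage score and 1 lower. Over all tested genes 17% were called higher and 13.9% lower. The part of these cells in the class II values was not tested. Among alveolar macrophage genes, Chil3 was between 142 and 52904 CPM, Siglecf between 2.53 and 295 CPM and Cidec at most 120 CPM. Among interstitial macrophage genes, C1qa reached at most 114 CPM and Trem2 at most 165 CPM, and C1qa was above Siglecf in KPY-Ctrl 3 and KPY-Setd2KO 5, 7 and 8.

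Ciita, the class II coactivator (chr16:10480059-10528418), was low and the least variable of the group. In KPY-Ctrl its lowest, median and highest values were 11.9, 18.6 and 33.6 CPM, and in KPY-Setd2KO they were 6.71, 13.5 and 27.9 CPM. The highest values were in KPY-Ctrl 2 and 4, which lie on opposite sides of the macrophage gap, and the groups overlapped over most of their range. The highest tumor exceeded the lowest by 5.00-fold.

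Cd74, the invariant chain on chromosome 18, was the most abundant member. Its lowest, median and highest values were 1625, 2887 and 7884 CPM in KPY-Ctrl and 982, 3881 and 9730 CPM in KPY-Setd2KO. The groups overlapped, and the range within each was far wider than the distance between them. KPY-Setd2KO 2 and 3 were highest and KPY-Setd2KO 5 and 6 lowest, so both ends of the range came from the same genotype.

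The 3 chain genes followed Cd74 closely. H2-Aa, the alpha chain of the I-A molecule (chr17:34282744-34287823), had lowest, median and highest values of 296, 559 and 1830 CPM in KPY-Ctrl and of 163, 849 and 2209 CPM in KPY-Setd2KO. H2-Ab1, its beta chain (chr17:34257689-34269419), had values of 279, 579 and 2107 CPM in KPY-Ctrl and of 235, 1086 and 2536 CPM in KPY-Setd2KO. H2-Eb1, the beta chain of the I-E molecule (chr17:34305867-34316674), had values of 205, 403 and 1553 CPM in KPY-Ctrl and of 143, 787 and 1946 CPM in KPY-Setd2KO. In all 3 genes KPY-Setd2KO 2 was highest and KPY-Setd2KO 5 lowest, and the groups overlapped. The I-E alpha chain was represented by the pseudogene H2-Ea-ps, which had at most 4 counts in any tumor.

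H2-DMa, the alpha chain of the peptide exchanger (chr17:34119541-34139101), spanned the widest range of the abundant members, 19.4-fold from lowest to highest. Its lowest, median and highest values were 48.6, 222 and 571 CPM in KPY-Ctrl and 29.6, 272 and 576 CPM in KPY-Setd2KO. H2-DMb1, the beta chain of the exchanger (chr17:34153072-34160230), had values of 67.9, 132 and 323 CPM in KPY-Ctrl and of 46.3, 231 and 428 CPM in KPY-Setd2KO. Both genes were higher in the 7 tumors above the macrophage gap than in the other 7, and their genotype groups overlapped. For H2-DMb1 the 2 sides were close, at 179 CPM in KPY-Ctrl 6 and 164 CPM in KPY-Setd2KO 7.

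H2-Oa, the alpha chain of the H2-DM inhibitor (chr17:34092340-34095234), was rare. Its lowest, median and highest values were 0.179, 1.40 and 3.95 CPM in KPY-Ctrl and 0, 4.13 and 10.4 CPM in KPY-Setd2KO. KPY-Setd2KO 6 had 0 counts, which allows up to 3 counts or 0.0769 CPM, KPY-Setd2KO 5 had 3 counts, and KPY-Ctrl 5 had 6. The highest tumor, KPY-Setd2KO 2, had 322 counts. The limit covers counting error only, and at this depth a difference among the lowest tumors was not detectable. Its partner H2-Ob was rarer still, at 0 to 2.52 CPM.

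**Figure D1:**
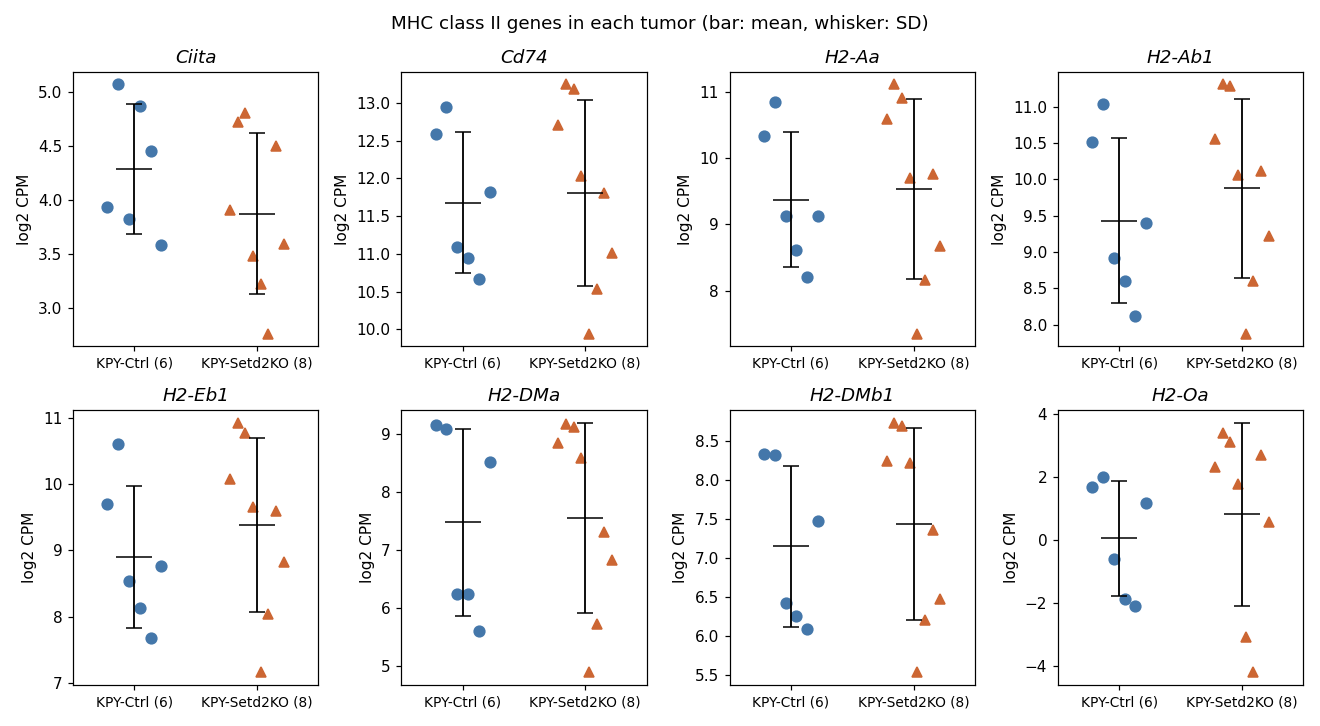
The log2 CPM of each of the 8 class II genes is plotted for every tumor, with KPY-Ctrl (6) and KPY-Setd2KO (8) side by side, the mean as a bar and the SD as a whisker. The 2 genotypes overlap in all 8 panels, and the SD of log2 CPM runs from 0.60 (Ciita in KPY-Ctrl) to 2.90 (H2-Oa in KPY-Setd2KO).

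Divided by exon length, the level of Cd74 was 2615 ± 1801 CPM per kb (SD, n = 14), which placed it above 99.9% of the tested genes. H2-Ab1 followed at 426 ± 316, H2-Eb1 at 400 ± 307, H2-Aa at 247 ± 181, H2-DMb1 at 122 ± 82.1 and H2-DMa at 83.4 ± 65.7 CPM per kb. H2-Oa at 2.30 ± 2.35 and Ciita at 1.92 ± 0.884 CPM per kb were lowest, above 43.7% and 40.2% of the tested genes. The distance between means exceeded the SD of the higher gene for Cd74 and H2-Ab1 and for H2-DMa and H2-Oa, and for no other neighbors. Within a tumor, Cd74 was above H2-Ab1, H2-Eb1 above H2-Aa, H2-Aa above H2-DMb1 and H2-DMa above H2-Oa in 14 of 14 tumors, and H2-DMb1 was above H2-DMa in 13 of 14. H2-Ab1 was above H2-Eb1 in 10 of 14 tumors and H2-Oa above Ciita in 7 of 14, so these 2 pairs had no fixed order.

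No class II gene passed the test between genotypes. In the edgeR quasi-likelihood test with Benjamini-Hochberg adjustment, 0 of 8 members and 0% of all 16836 genes passed an adjusted p of 0.05. At an unadjusted p under 0.05 the counts were 0 of 8 members and 2311 of all genes. DESeq2 called 770 genes, none of them a class II gene, and limma voom called 0. The fitted log2 differences, KPY-Setd2KO minus KPY-Ctrl, were 0.47 ± 0.58 (SE) for H2-Ab1, 0.56 ± 0.59 for H2-Eb1, 0.32 ± 0.59 for H2-Aa, 0.28 ± 0.55 for Cd74 and -0.36 ± 0.35 for Ciita, with adjusted p-values of 0.724 to 0.881 in that test. H2-DMa differed by 0.05 ± 0.73, H2-DMb1 by 0.37 ± 0.55 and H2-Oa by 1.36 ± 1.09, with adjusted p-values of 0.985, 0.842 and 0.646. The median over the 8 genes was 0.35, beside 0.03 over all tested genes. Two-sided exact permutation tests of mean log2 CPM over tumors gave p-values from 0.275 (Ciita) to 0.924 (H2-DMa). With standard errors of 0.35 to 1.09 log2 units, the data do not show that the genotypes had equal class II RNA. The direction of H2-DMa was not stable, at -0.08 when counts were scaled by library size only and between -0.16 and 0.39 when 1 tumor was left out.

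Class II RNA rose with macrophage RNA. With genotype, the macrophage score and the AT2 score in 1 edgeR quasi-likelihood model, all 8 genes rose with the macrophage score at an adjusted p under 0.05, whereas 17% of all tested genes did so. With counts scaled by library size only, 7 of the 8 rose (all but Ciita, adjusted p = 0.119 by edgeR) and 8.08% of all genes did, and the calls over all genes went from 2863 higher and 2336 lower to 1360 higher and 2799 lower. By edgeR, H2-DMa rose by 0.80 ± 0.06 log2 units (SE) per unit of the score (adjusted p = 2.88e-07), H2-Eb1 by 0.65 ± 0.10, H2-Aa by 0.65 ± 0.11, H2-Ab1 by 0.62 ± 0.10, Cd74 by 0.57 ± 0.08 and H2-DMb1 by 0.55 ± 0.07. H2-Oa rose by 1.59 ± 0.25. Ciita rose by 0.30 ± 0.11 (adjusted p = 0.0486 by edgeR), and its adjusted p was above 0.05 when any of 11 of the 14 tumors was left out, with a highest value of 0.134. The median slope was 0.63 for the 8 genes and 0.005 for all genes. In bulk RNA, fewer macrophages and less class II RNA per macrophage cannot be told apart.

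A slope of 1 means that a gene moved by as much as the mean of the 12 macrophage genes, and 7 of the 8 class II slopes were below 1. Among 6 leukocyte genes kept out of the score, Laptm5 rose by 1.22 ± 0.07, Ptprc (CD45) by 1.22 ± 0.06, Tyrobp by 1.07 ± 0.10, Fcer1g by 1.07 ± 0.08, Coro1a by 0.98 ± 0.09 and Lcp1 by 0.67 ± 0.08. The slopes of Cd74, the 3 chain genes and H2-DMb1, 0.55 to 0.65, were below all 6 of these, and the differences in slope between genes were not tested. From the lowest to the highest tumor Cd74 differed 9.91-fold, H2-Ab1 10.8-fold, H2-Eb1 13.6-fold and H2-Aa 13.5-fold. Over the same tumors Csf1r ran from 5.49 to 405 CPM and Ptprc from 5.32 to 698 CPM.

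**Figure D2:**
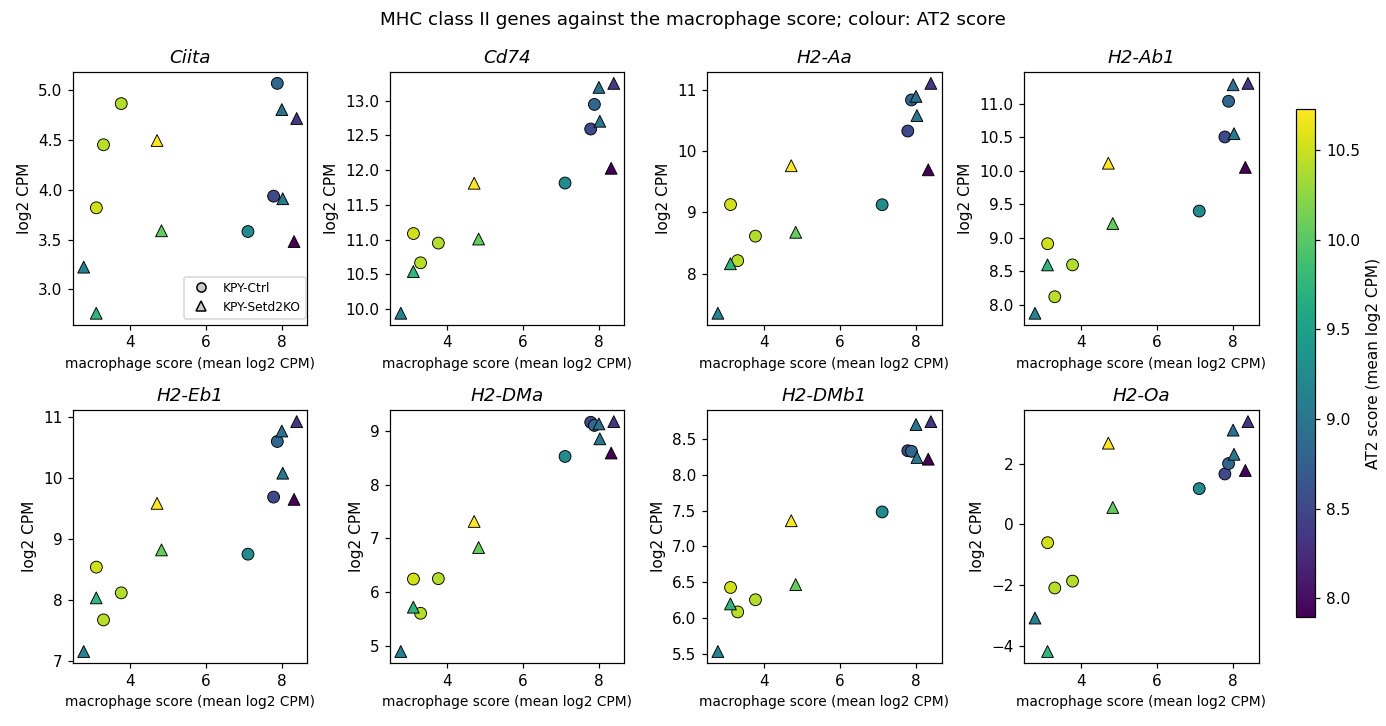
Each panel plots the log2 CPM of 1 class II gene against the macrophage score (mean log2 CPM of 12 genes) in the 14 tumors, with KPY-Ctrl as circles, KPY-Setd2KO as triangles and the AT2 score as color. The 7 tumors above the gap between 4.84 and 7.11 have AT2 scores of 7.90 to 9.24 and the higher levels of H2-DMa and H2-DMb1. Cd74 nearly meets across the gap, at 11.814 in KPY-Ctrl 6 and 11.811 in KPY-Setd2KO 7, and Ciita overlaps. KPY-Setd2KO 7 has the highest AT2 score, 10.73.

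Once macrophage RNA was in the model, all 8 genes also had slopes above 0 on the AT2 score, but 1 of 8 passed the test, beside 2.48% of all genes that rose with it. H2-Oa rose by 2.17 ± 0.50 per unit of the AT2 score (adjusted p = 0.0273 by edgeR). Its call was lost without KPY-Setd2KO 4, 5 or 7, and without the last of these its slope was 1.57 (adjusted p = 0.291 by edgeR). The counts behind it were low in some tumors rich in AT2 RNA. KPY-Ctrl 4 and 5, with AT2 scores of 10.4 and 10.43, had 14 and 6 counts of H2-Oa. KPY-Setd2KO 7, with an AT2 score of 10.73, had 122 counts of H2-Oa. The slopes of the other 7 ran from 0.27 ± 0.15 (H2-DMb1) to 0.62 ± 0.25 (H2-Aa), and 6 of them had an unadjusted p under 0.05 in the edgeR fit, as did 3620 of all 16836 genes. Their smallest adjusted p was 0.0994, for H2-DMa. The 6 lung epithelial genes kept out of the AT2 score all rose with it, among them Nkx2-1, the lung lineage factor, and Cldn18, a tight junction gene, with a median slope of 0.95.

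The AT2 slopes depended on the macrophage term. The 2 scores opposed each other, and genotype and the AT2 score explained 63.1% of the variance of the macrophage score. With genotype and the AT2 score alone, all 8 slopes were below 0, from -0.02 (Ciita) to -1.18 (H2-DMa), and 4 passed the test as lower, namely Cd74, H2-Ab1, H2-DMa and H2-DMb1. With a score from interstitial macrophage genes in place of the macrophage score, 7 of the 8 AT2 slopes were again below 0, H2-DMa was called lower (-0.82, adjusted p = 0.0454 by edgeR) and no member was called on the macrophage term.

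**Figure D3:**
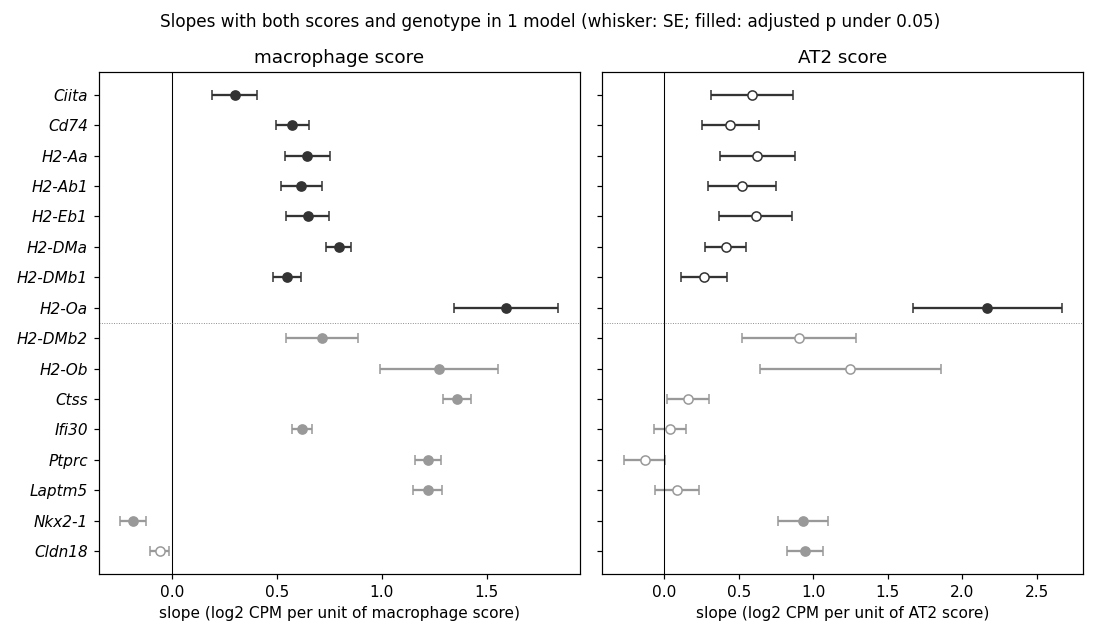
Slopes on the macrophage score (left) and on the AT2 score (right), in log2 CPM per unit of score, are plotted with their SE for the 8 class II genes above the dotted line and for 8 comparison genes below it. Filled points passed an adjusted p of 0.05. All class II genes are filled on the left and H2-Oa alone is filled on the right, where the other 7 lie between 0.27 and 0.62.

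No class II gene was called by genotype once both scores were in the model. Of all tested genes 6.34% were called by genotype beside the scores (634 higher and 434 lower, or 355 and 492 with library size only) and 0 of 8 class II genes were, and none of the 8 had an unadjusted p under 0.05 in edgeR. The fitted log2 differences, KPY-Setd2KO minus KPY-Ctrl, were 0.02 ± 0.20 for Cd74, 0.02 ± 0.27 for H2-Aa, 0.30 ± 0.24 for H2-Ab1, 0.34 ± 0.26 for H2-Eb1, -0.18 ± 0.14 for H2-DMa, 0.11 ± 0.17 for H2-DMb1, -0.37 ± 0.30 for Ciita and 0.82 ± 0.53 for H2-Oa. The standard errors of Cd74 and the chain genes were 0.20 to 0.27, against 0.55 to 0.59 in the comparison of genotype alone. Whether the slope on the macrophage score differed between genotypes was tested as an interaction, which called 0.487% of all genes and 0 of 8 members. The difference in slope, KPY-Setd2KO minus KPY-Ctrl, ran from -0.08 ± 0.06 (H2-DMa) to 0.13 ± 0.14 (Ciita), with adjusted p-values of at least 0.567 by edgeR.

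The 2 sources were then separated on the linear scale. Each gene's CPM was written as a macrophage part plus an AT2 part by non-negative least squares, with both levels scaled to a mean of 1 over tumors, so the share of the mean fitted level that went with the macrophage genes can be read directly. The share was 76.8% for Cd74, 76.8% for H2-Aa, 77.6% for H2-Ab1 and 77.9% for H2-Eb1. Leaving out 1 tumor at a time moved these 4 shares between 70.9% and 83.5%. H2-DMb1 had a share of 80.3% and H2-DMa one of 88.5%, with a range of 86.3% to 90.2% as tumors were left out. Other settings moved H2-DMa further, to 82.3% with an alveolar macrophage score, 92.5% with a relative error and 97.6% with a constant term. H2-Oa had a share of 80.7% but a range of 71.2% to 99.8%, and of 99.6% with a relative error. Ciita had a share of 42.7%, with a range of 37.1% to 50.2%, which lay below the ranges of the other 7 genes. Shares near this were also assigned to genes that the split did not describe, with a variance explained below 0: Nfyb at 40.9%, Creb1 at 39.8%, Nfya at 44.3% and Ifngr2 at 42.1%, all named after their values were seen. The share of Ciita therefore does not by itself assign it to a source.

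Genes of known source that had not been used to build the split were assigned as follows. The 6 leukocyte genes had macrophage shares of 92.3% (Lcp1) to 100% (Fcer1g, Laptm5 and Ptprc), and the 6 lung epithelial genes had shares of 0%. Lyz2, the lysozyme that macrophages and AT2 cells both make, had a share of 89.8%. The fit explained 92.2% of the variance of H2-DMb1, 87.3% of H2-DMa, 78.7% of Cd74, 72.7%, 73.7% and 75% of H2-Eb1, H2-Ab1 and H2-Aa and 59.9% of H2-Oa, but 30.5% of Ciita. The jackknife SE of the share was 4.46 percentage points for H2-DMa, 12.7 for Ciita, 21.2 for H2-Oa and 7.16 to 10.1 for the other 5. A share is a statement about covariation over 14 tumors. Anything that moves with macrophage RNA, in tumor cells or in other cells such as dendritic cells, is counted in the macrophage part. The AT2 part is likewise not specific to AT2 cells. With an epithelial score in place of the AT2 score, the share of Cd74 was 78.6% and 76.05% of its variance was explained. For Ciita that setting explained less than the AT2 score did, at -16.02%.

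**Figure D4:**
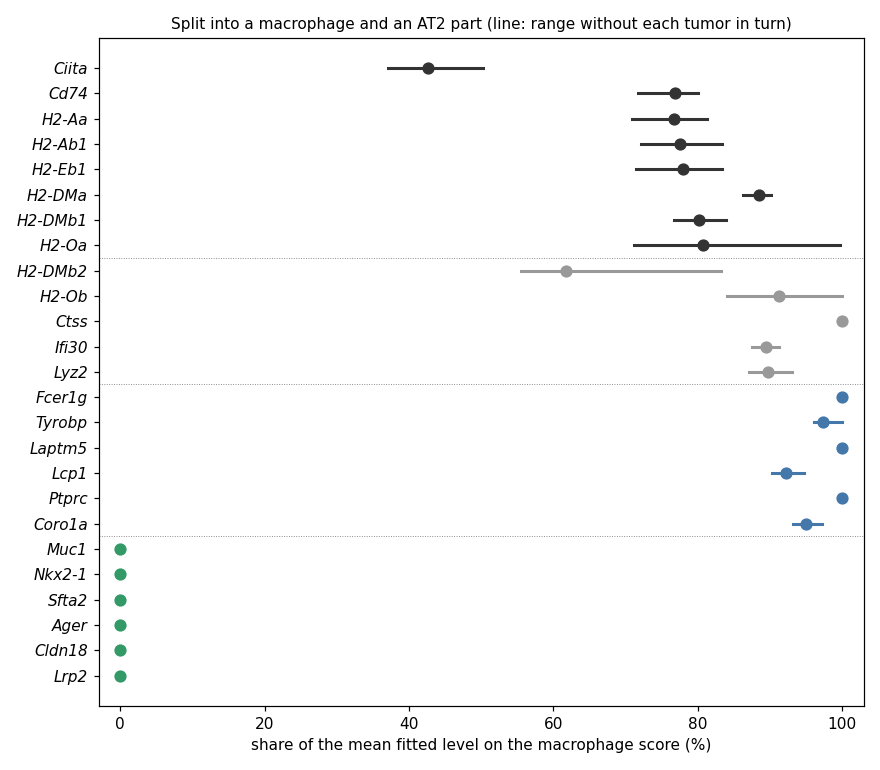
The share of the mean fitted CPM assigned to the macrophage score (%) is plotted for the 8 class II genes, 5 related genes, 6 leukocyte genes (blue) and 6 lung epithelial genes (green), with lines for the range when each tumor was left out in turn. Cd74 and the chain genes lie near 77%, Ciita at 42.7%, the leukocyte genes at 92.3% or above and the epithelial genes at 0%.

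The same split assigned very different parts to each tumor. In KPY-Setd2KO 4, 2 and 3 the macrophage part was a median over the 8 genes of 96.4%, 95.2% and 91.5% of the fitted level, and in KPY-Ctrl 1, 2 and 6 and KPY-Setd2KO 1 it was 92.8%, 91.3%, 83.6% and 91.1%. In KPY-Ctrl 3, 4 and 5 it was 15.9%, 17.1% and 14.1%, and in KPY-Setd2KO 5, 6, 7 and 8 it was 32.0%, 27.1%, 37.7% and 51.0%. In macrophage-poor tumors the AT2 part was thus the larger in all but 1. A tumor with the mean AT2 level was assigned 1024 CPM of Cd74 and 249 CPM of H2-Ab1 in the AT2 part. That part can also take RNA that does not follow the macrophage score, whichever cells made it. Of the leukocyte genes, Lcp1 was assigned 93.05 CPM there and Ptprc 0 CPM. A constant term took 16.1% of H2-DMa and 0% of Cd74 and H2-Ab1. Measured against the fit, KPY-Setd2KO 4 had less class II RNA than assigned, with a median ratio of observed to fitted CPM of 0.528, followed by KPY-Ctrl 5 at 0.659 and KPY-Ctrl 6 at 0.693. KPY-Setd2KO 3 and KPY-Ctrl 2 had more, at 1.33 and 1.30.

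Ratios to a macrophage gene were taken without any model, and were chosen after the data had been seen. H2-Ab1 per Csf1r, as a ratio of CPM, was 3.54 to 8.89 in the 7 tumors with macrophage scores of 7.11 or more, and 17.2 (KPY-Setd2KO 8) to 61.4 (KPY-Ctrl 3) in the other 7. The 2 ranges did not meet. Cd74 per Csf1r ran from 14.5 to 33.2 in the first 7 tumors and from 59.6 to 277 in the others. H2-Oa per Csf1r overlapped between the 2 sets, and the ratios of the other 7 class II genes did not. The 6 leukocyte genes kept out of the score were mixed. Tyrobp per Csf1r ran from 1.57 to 6.33 and from 3.19 to 7.41, and it overlapped, as did Fcer1g, Laptm5 and Coro1a. Lcp1 per Csf1r ran from 5.10 to 8.10 and from 9.36 to 53.7, so it was separated in the same direction as the class II genes. Ptprc per Csf1r was separated in the opposite direction, at 1.09 or more in the first 7 tumors and 0.970 or less in the others. The separation of the class II ratios was thus shared by 1 of the 6 leukocyte genes. Csf1r itself was at 191 to 405 CPM in the first 7 tumors and at 5.49 to 34.6 CPM in the others. A gene that varied much less than Csf1r is therefore separated in this direction by construction. The share of all tested genes separated in this way was not computed, so the ratios do not set the class II genes apart. These sets of tumors were formed by the macrophage score, which includes Csf1r, and are not groups of the study, so no test was made between them.

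**Figure D5:**
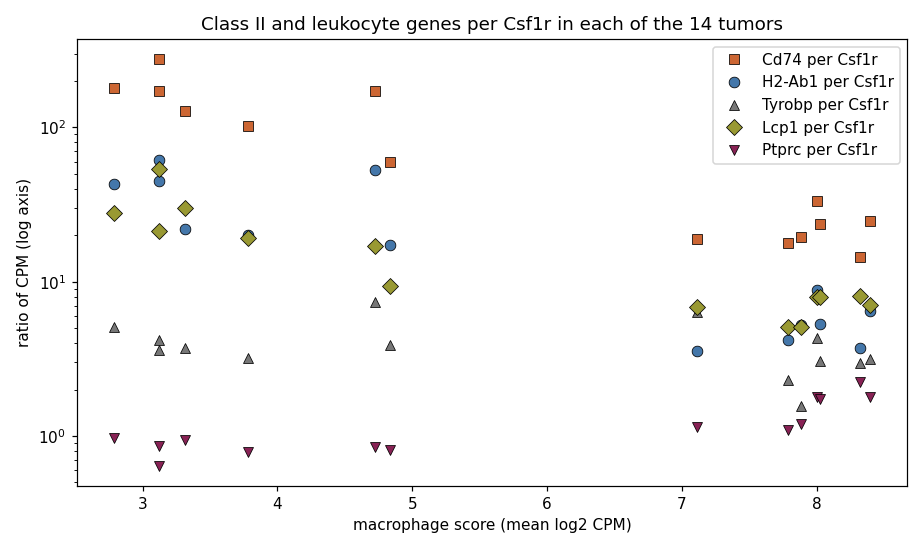
Ratios of CPM to Csf1r CPM (log axis) are plotted against the macrophage score for Cd74 (squares), H2-Ab1 (circles), Tyrobp (upward triangles), Lcp1 (diamonds) and Ptprc (downward triangles) in the 14 tumors. H2-Ab1 per Csf1r falls from between 17.2 and 61.4 on the left to between 3.54 and 8.89 on the right, Lcp1 per Csf1r lies between 9.36 and 53.7 on the left and between 5.10 and 8.10 on the right, and Tyrobp per Csf1r stays between 1.57 and 7.41.

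Within each side of the macrophage gap no relation with a score was called. Of 32 relations (8 genes, 2 scores, 7 tumors on each side), none had a Benjamini-Hochberg adjusted exact permutation p under 0.05, and the smallest was 0.0974. Below the gap, Pearson's r with the AT2 score was 0.63 (H2-Ab1) to 0.87 (Cd74), with Spearman's rho of 0.57 to 0.86. For Cd74 the exact permutation p was 0.00893 for r = 0.873 and 0.0238 for rho = 0.857, with adjusted values of 0.0974 and 0.22, and r fell to 0.603 without the 2 tumors farthest from the median score. In the same 7 tumors, r with the macrophage score was 0.39 (Ciita) to 0.89 (H2-DMa, exact permutation p = 0.00496, adjusted p = 0.0974, rho = 0.857, exact p = 0.0238, adjusted p = 0.22, and r = 0.729 without the 2 farthest tumors). Above the gap, r with the macrophage score was 0.29 to 0.81 and turned below 0 in 7 of 8 genes without the 2 farthest tumors, and r with the AT2 score was -0.39 to 0.16. No correlation of a gene with a score was computed across the gap.

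Members of the group also moved together in ways that the 2 scores did not describe. With tumors centered within genotype, r between Cd74 and each of H2-Aa, H2-Ab1 and H2-Eb1 was 0.983 to 0.989, and after the 2 scores were also fitted it was still 0.908 to 0.960. H2-DMa was less tied to them after the scores, at 0.615 to 0.747. Ciita was related to Cd74 at 0.605 before and 0.573 after the scores, and to H2-DMa at 0.431 before and -0.115 after. These are descriptions over 14 tumors that share libraries and depth, and no p is attached to them. The ratio of Cd74 to H2-Ab1 in CPM stayed between 3.24 and 5.83 in all tumors, whereas that of H2-DMa to H2-Ab1 ran from 0.126 (KPY-Setd2KO 5) to 0.544 (KPY-Ctrl 6), and Ciita per H2-Ab1 was highest in KPY-Ctrl 5 and 4, at 0.0784 and 0.0752, against 0.00995 to 0.0395 elsewhere.

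After genotype and both scores were fitted, KPY-Ctrl 6 had the lowest mean residual over the 8 genes, at -0.65 log2 units, with H2-Aa at -1.01 and H2-Eb1 at -0.91 while H2-DMa was at -0.07. KPY-Setd2KO 2 and KPY-Ctrl 3 had the highest mean residuals, at 0.49 and 0.47. H2-Oa had the widest residuals, from -1.73 in KPY-Setd2KO 6, the tumor with 0 counts, to a highest value in KPY-Ctrl 3.

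The genes most like the mean of the 8 members, among 9413 genes with a mean log2 CPM of at least 3, were Cox7b (r = 0.964), Stard5 (0.958), Sp140 (0.956), Vegfb (0.955), Lrpap1 (0.954), Adcy7 (0.951), Mcee (0.951), Ganc (0.951), Dhdds (0.950) and Gmpr (0.950), with r over 14 tumors after centering within genotype. After both scores were fitted as well, the list was led by Slc48a1 (0.901), Arntl (0.890), Slc9a8 (0.879), Pigq (0.879) and Pdk2 (0.873), followed by Tbc1d22b, Crat, Srgap2, Sil1 and Kiz at 0.862 to 0.872, and the 2 lists had no gene in common. By gene, the 3 most like H2-DMa were Sp140 (0.992), Gna15 (0.988) and Pycard (0.987), and those most like H2-DMb1 included Sp140 (0.989) and Dhdds (0.988). Cd74 was most like Lrpap1 (0.969), Cox7b (0.967) and Stard5 (0.965), H2-Aa like Cox7b (0.953), Rab3d (0.950) and Ganc (0.947), and H2-Ab1 like Scly, Anpep and Vegfb (all 0.952). H2-Eb1 was most like Vegfb (0.949), Anpep (0.947) and Mpc1-ps (0.944), and H2-Oa like Mcee (0.973), Ap4s1 (0.970) and Ndufa10 (0.957). Ciita had the weakest likeness, to Gphn (0.877), Ctps2 (0.859) and Irak1 (0.853). These r are descriptions over tumors that lie on opposite sides of the gap in macrophage RNA.

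The rest of the class II pathway was examined as lists of 36 genes, 34 of which were tested. Of 8 regulators, the RFX, NF-Y and Creb1 components of the promoter complex and the class I coactivator Nlrc5, 3 rose with the macrophage score (Rfxank by 0.21 ± 0.06, Nfyc by 0.12 ± 0.04 and Nlrc5 by 0.69 ± 0.20, adjusted p of 0.0154, 0.0369 and 0.0195 by edgeR), none fell, and the list median was 0.07. None of the 8 was called on the AT2 score, where the smallest p belonged to Rfx5 (slope 0.39 ± 0.13, unadjusted p = 0.00939 and adjusted p = 0.104 by edgeR). The median slope on the macrophage score was 0.63 for the 8 class II genes.

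Of 3 other chain genes tested, H2-DMb2 rose with the macrophage score by 0.72 ± 0.17 and H2-Ob, the beta chain of the H2-DM inhibitor, by 1.27 ± 0.28 (adjusted p of 0.00677 and 0.00359 by edgeR). H2-Eb2 had a slope of 0.22 ± 0.12 and was not called. On the AT2 score the slopes of these 3 were 0.91 ± 0.38, 1.25 ± 0.61 and 0.84 ± 0.29, and none was called. H2-DMb2 per H2-DMb1, a ratio of CPM, was 0.0452 to 0.222 in 13 tumors and 0.401 in KPY-Setd2KO 7.

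Of 10 genes of antigen processing and class II turnover, 7 rose with the macrophage score and none fell, with a list median of 0.47. Ctss, the cathepsin that makes the last cut of the invariant chain in macrophages and dendritic cells, rose by 1.36 ± 0.07, the ubiquitin ligase March1 by 1.24 ± 0.10, its antagonist Cd83 by 1.08 ± 0.13, the thiol reductase Ifi30 by 0.62 ± 0.05, the protease Lgmn by 0.51 ± 0.10, the cathepsins Ctsd by 0.44 ± 0.07 and Ctsb by 0.29 ± 0.06. The split assigned 100% of Ctss, March1 and Cd83 to the macrophage part, above every class II member. Ctsl, another cathepsin that cuts the invariant chain, fell with the AT2 score by 0.97 on the log2 scale (SE 0.24, adjusted p = 0.0368 by edgeR), and the other 9 were not called on it. Ctsl was at 969 and 991 CPM in KPY-Setd2KO 5 and 6. It was at 180 to 287 CPM in the other tumors below the macrophage gap and at 407 to 959 CPM above it. The list median on the AT2 score was -0.08, beside 0.55 for the 8 members and 0.04 for all genes.

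Of 6 costimulatory genes, 4 rose with the macrophage score (Cd80 by 1.17 ± 0.16, Cd86 by 0.95 ± 0.12, Icosl by 0.65 ± 0.08 and Cd274 by 0.60 ± 0.08) and none was called on the AT2 score, where the list median was -0.33. Icosl was the only gene of the pathway lists called by genotype beside the scores, lower in KPY-Setd2KO (log2 difference -0.94 ± 0.19, adjusted p = 0.0192 by edgeR). Without the scores its difference was -0.33 ± 0.90, and beside them its call was lost without KPY-Setd2KO 7 (adjusted p = 0.0769 by edgeR). Among genes of the interferon-gamma pathway, which induces Ciita, Irf8 rose with the macrophage score (0.63 ± 0.08) and Jak2 fell by 0.44 (SE 0.08), and Jak2 also fell by 1.07 on the AT2 score (SE 0.25). Jak2 was at 125 and 113 CPM in KPY-Setd2KO 5 and 6 and at 21.1 to 56.7 CPM in the other tumors. Ifng itself did not pass the filter and reached at most 0.358 CPM.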

How the data were processed

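RNA from 14 tumors (6 KPY-Ctrl, 8 KPY-Setd2KO) was sequenced. The authors deposited 1 table of estimated counts for 52550 genes, made per the submitters' processing notes with Salmon 0.8.2 and GRCm38.p5, and these were rounded to whole numbers. The labels name each column by group and replicate, and the paper gives 6 and 8 individual tumors for this RNA. Symbols, positions and exon lengths came from GENCODE M21 (GRCm38), which matched 52403 genes.

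Low counts were filtered and libraries scaled by TMM. Genotype alone, genotype with the macrophage and AT2 scores, and the interaction were fitted by edgeR 4.0.16 quasi-likelihood tests across all genes in R 4.3.3, with Benjamini-Hochberg adjusted p under 0.05 as the call. Log2 CPM used a prior count of 2. Single genes were also tested by exact permutation over 3003 arrangements of tumors (two-sided). The linear split used non-negative least squares (scipy 1.17.1). Scripts were tested on simulated data. Alternatives used RLE factors, library size only, no filter, DESeq2 1.42.0, limma voom 3.58.1, a replicate block, other scores, and each tumor left out.

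The members, lists and tests were chosen with earlier results of these data known. The 8 members are given in full. From the pathway lists the genes called in any fit, the one with the smallest p, H2-DMb2 and H2-Ob are named. For likeness the 10 genes with the largest r to the members' mean and the 3 most like each member are named. Some items that these rules select are not reported here. The limit on a count of 0 was taken as 3 counts and covers counting error only.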

Additional observations from a re-analysis of the deposited data

How the results depend on the processing

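No class II gene was called by genotype, alone or beside the scores, under any alternative run. Genes called by genotype numbered 0 by edgeR and 770 by DESeq2, and 0 to 1 with 1 tumor left out (1 without KPY-Ctrl 6). Beside the scores the count of 1068 became 530 without a filter, 2277 by DESeq2, 1650 by limma voom and 132 with the interstitial macrophage score, 847 (355 higher and 492 lower, against 634 and 434) with library size only, and 61 (without KPY-Setd2KO 7) to 1558 with 1 tumor left out, with 684, 281 and 345 without KPY-Ctrl 2, 4 and 5 and 699, 476 and 673 without KPY-Setd2KO 3, 6 and 8. On the macrophage score 5199 genes (2863 higher, 2336 lower) became 4159 (1360 and 2799) with library size only, 8 with the interstitial score, 1679 with the epithelial score and 9671 without the AT2 score, and 1518 (without KPY-Setd2KO 5) to 5276 with 1 tumor left out. Members called on it were 0 with the interstitial and 5 with the epithelial score, and 7 to 8 with 1 tumor left out. On the AT2 score 746 genes became 464 without a filter, 1669 by DESeq2, 6058 with the interstitial score, 219 with the epithelial score and 8119 without the macrophage score, and 57 (without KPY-Setd2KO 5) to 845 with 1 tumor left out, with 459, 69 and 442 without KPY-Setd2KO 6, 7 and 8. Members called on it were 0 with library size only, limma voom or the epithelial score, 2 by DESeq2, 4 (all lower) without the macrophage score, 1 (H2-DMa, lower) with the interstitial score in place of 1 higher, and 0 to 1 with 1 tumor left out.

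The median macrophage share of 77.7% ran from 71.6% (without KPY-Setd2KO 2) to 83.4% (without KPY-Setd2KO 7) with 1 tumor left out. It was 71.4% with the alveolar macrophage score and 79.45% with the epithelial score in place of the AT2 score. Directions turned as follows, and the cause was not tested. H2-DMa between genotypes was -0.083 with library size only and -0.16 to 0.39 with 1 tumor left out. Beside the scores Cd74 was -0.088 to 0.11 and H2-Aa -0.14 to 0.19 with 1 tumor left out, -0.087 and -0.11 with the epithelial score, and with the interstitial score Cd74 was -0.27, H2-Aa -0.27, H2-Ab1 -0.049, H2-Eb1 -0.0094, H2-DMb1 -0.18 and H2-Oa -0.20. AT2 slopes with the interstitial score were -0.42 (Cd74), -0.33 (H2-Aa), -0.36 (H2-Ab1), -0.28 (H2-Eb1), -0.82 (H2-DMa), -0.57 (H2-DMb1) and -0.13 (H2-Oa). Without the macrophage score they were -0.025 (Ciita), -0.74 (Cd74), -0.71 (H2-Aa), -0.74 (H2-Ab1), -0.72 (H2-Eb1), -1.18 (H2-DMa), -0.84 (H2-DMb1) and -0.79 (H2-Oa). The interaction without the AT2 score was 0.015 for H2-Ab1 and -0.017 for H2-Oa.

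Whether tumors with equal replicate numbers shared a preparation was not given. Genotype-centered expression of same-numbered tumors correlated at -0.664 to 0.657, and 2 of 6 controls matched their own number best. These values also carry the spread in macrophage RNA, so they cannot show whether tumors were paired. With the replicate block, 0 genes were called by genotype beside the scores, 1290 genes and 5 members on the macrophage score, 0 genes and 0 members on the AT2 score, and H2-Oa beside the scores was -0.24. Of the 8 genes, H2-Oa alone had 3 counts or fewer in a tumor. A macrophage score without Cd14 and Aif1, chosen after seeing the data, called 8 members on it.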

Other observations

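Some genes that interferon-gamma induces, as it does Ciita, were called higher in KPY-Setd2KO beside the scores. These calls were lost without KPY-Setd2KO 7, and also with the interstitial macrophage score. All 11 tested genes of the list had log2 differences above 0 and 4 were called by edgeR, beside 3.77% of all genes called higher. Gbp4, a guanylate-binding protein, differed by 2.18 ± 0.48 (SE, adjusted p = 0.0235 by edgeR), and the immunity-related GTPases Iigp1, Igtp and Irgm2 by 2.54 ± 0.59, 1.38 ± 0.37 and 1.13 ± 0.24 (adjusted p of 0.0287, 0.0428 and 0.0215 by edgeR). The median of the list was 1.13, beside 0.06 for the 8 class II genes, and the difference between the lists was not tested. With genotype alone none of the 11 was called, and 5 had an unadjusted p under 0.05 in edgeR. KPY-Setd2KO 7 was the highest tumor for the 4 called genes, at 20.5 CPM for Gbp4, 87.2 for Iigp1, 79.5 for Igtp and 39.3 for Irgm2. Without it none of the 11 was called, the list median was 0.663 and the 4 differences were 1.45, 1.94, 0.81 and 0.88 (adjusted p of 0.123 to 0.185 by edgeR). Without KPY-Ctrl 4 or 5, 1 of the 11 was called, and with the epithelial score in place of the AT2 score also 1. With the interstitial macrophage score 0 of the 11 were called, 10 were above 0 and the list median was 0.711. Without a filter 2 of 12 were called. Over all genes the calls went from 1068 to 61 without KPY-Setd2KO 7, and to 0 with the replicate block. On the macrophage score 9 of the 11 rose, with a list median of 0.76.

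Cd79b, a B cell receptor component, rose with the AT2 score by 0.89 ± 0.19 (adjusted p = 0.0209 by edgeR). It was highest in KPY-Setd2KO 7, at 13.6 CPM, as were the B cell genes Fcer2a at 15.5 CPM and Pax5 at 5.14 CPM, and this tumor also had the highest AT2 score, 10.73. Without it the slope of Cd79b was 0.78 (adjusted p = 0.169 by edgeR), and the AT2 call of H2-Oa was lost as well. The call of Cd79b was also lost without KPY-Setd2KO 5 or 6 (adjusted p of 0.0985 and 0.0503 by edgeR). The part of B cells in these values was not tested.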
